A study of Mus musculus with 18 samples.

Results

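The effect of actinomycin D on the RNA of resting T cells was measured in 4 RNA-seq libraries: Th2_Resting_Actinomycin and CD8_Resting_Actinomycin, paired with the untreated libraries Th2_Resting and CD8_Resting. These 4 were chosen by their labels from the 18 samples of the series, of which 8 were RNA-seq libraries, and 10947 of the 43432 genes in the table had a mean of at least 50 normalised reads over the 4 and were described. A normalised read is a gene's read count divided by 1 size factor per library. A value is thus relative to the other RNAs of that library, and is neither an exact share of it nor an amount per cell. Fewer cells of a type cannot be told apart from less RNA per cell. All cells came from lymph nodes and spleen of C57BL/6 mice with no engineered allele named, and the sources used here do not state the animals' age. Th2 cells are CD4 T cells that had been grown with IL-4, IL-2 and an antibody against interferon gamma. CD8 cells, the cytotoxic lineage, had been grown with IL-12 and IL-2. Both had been activated through CD3, part of the T cell receptor, and the costimulatory receptor CD28, and were put in fresh medium for 4 h before harvest after 5 days of culture, without PMA and ionomycin for the resting libraries. Cells of several mice were pooled, each condition had 1 library, and the labels give neither the dose nor the duration of actinomycin D. The study's methods describe 1 dose and several times of the drug, after stimulation, and state neither the time used for RNA-seq nor a schedule for resting cells. The labels give all 4 libraries the same preparation, from irradiated cells and a lysate cleared of debris, whereas the study's methods describe Trizol lysis for cells given the drug. If the preparations differed, that and the drug cannot be told apart.

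Actinomycin D slides between the base pairs of DNA and blocks the RNA polymerases, most readily the one that makes ribosomal RNA and at higher doses all of them. Once synthesis stops, each messenger RNA declines at its own rate, so in a library of fixed size the share of short-lived messengers falls and that of long-lived ones goes up. Decay is steered mostly by proteins that bind the 3′ untranslated region (UTR). AU-rich elements, runs built from the pentamer AUUUA, recruit the ZFP36 family, and the motif UGUANAUA recruits Pumilio proteins. Both bring in the enzymes that shorten the poly(A) tail. In T cells many cytokine, signalling and transcription factor messengers are of the short-lived kind, which lets a cell change its state quickly.

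The libraries held 24687869 to 31042504 reads in genes. Cd4, the coreceptor of helper cells, was at 39568 in treated and 21518 in untreated Th2 cells, and at 30.5 in treated and 25.9 in untreated CD8 cells. Cd8a was at 2401 in treated and 1331 in untreated Th2 cells, and at 15749.6 in treated and 10516 in untreated CD8 cells, so the Th2 libraries also held some of the CD8 coreceptor. Il1rl1, the IL-33 receptor and a Th2 marker, was higher in CD8 libraries, at 50.6 in treated and 71.6 in untreated Th2 cells, and at 2325 in treated and 2876 in untreated CD8 cells. Markers of other cell types summed to less than the 10 genes common to T cells in every library. The 9 B cell genes summed to 1173 in treated and 1263 in untreated Th2 cells, and to 265 and 256 in CD8 cells. The 11 myeloid genes in the table summed to 564 and 290.4 in treated Th2 and CD8 cells, against 234 and 129 in untreated ones, with S100a8, S100a9 and Lyz1 at 0 in all 4. The dendritic list summed to 5030.5 and 2523 in treated Th2 and CD8 cells, against 3469 and 1305 in untreated ones. Their part in the results was not tested.

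The comparison of treated with untreated cells asks which messengers decline and which persist when synthesis is blocked at rest. With limma on log2(value + 1), paired by cell type, 6181 of 10947 genes (56.5%) passed a Benjamini-Hochberg adjusted p of 0.05. Of these, 3330 fell (30.4% of genes tested) and 2851 rose (26.0%), with a median change of all genes of -0.0086 on the log2 scale. Falls were the larger: 1521 genes fell and 653 rose by at least 2-fold, 250 fell and 20 rose by at least 4-fold, and 35 fell by at least 8-fold. In 6489 genes (59.3%) both treated libraries lay on 1 side of both untreated ones, and 1010 genes passed the test although their groups overlapped, because the test pairs each treated library with its own cell type. The sign of a moderate rise depends on what the library is scaled to. Scaled to the ribosomal protein genes, the median of all genes moved to -0.79, and 6902 genes were lower and 146 higher. A change reported below as a rise is therefore a rise relative to the other RNAs of the library. Each library also weighed on the count: in the model of all 8 RNA-seq libraries, where 5095 genes passed with every library in, 2085 passed without the treated Th2 library, 2706 without the treated CD8 library, 3229 without the untreated Th2 library and 2721 without the untreated CD8 library. Without the pairing no gene passed, with 3359 at an unadjusted p under 0.05.

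The 2 cell types moved much alike. The changes in Th2 and in CD8 cells correlated at a Pearson r of 0.872 and a Spearman rho of 0.866 across the 10947 genes, which are not independent replicates, and 9353 genes (85.4%) changed in the same direction. At 2-fold, with 1 pair per cell type and no test, 1642 genes were lower in treated Th2 cells and 1508 in treated CD8 cells, and 1144 (10.5% of genes tested) were lower in both, which is 69.7% of the Th2 genes and 75.9% of the CD8 genes. In the other direction 731 genes were higher in treated Th2 cells and 760 in treated CD8 cells, with 416 (3.80%) shared, or 56.9% of the Th2 and 54.7% of the CD8 genes.

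**Figure D1:**
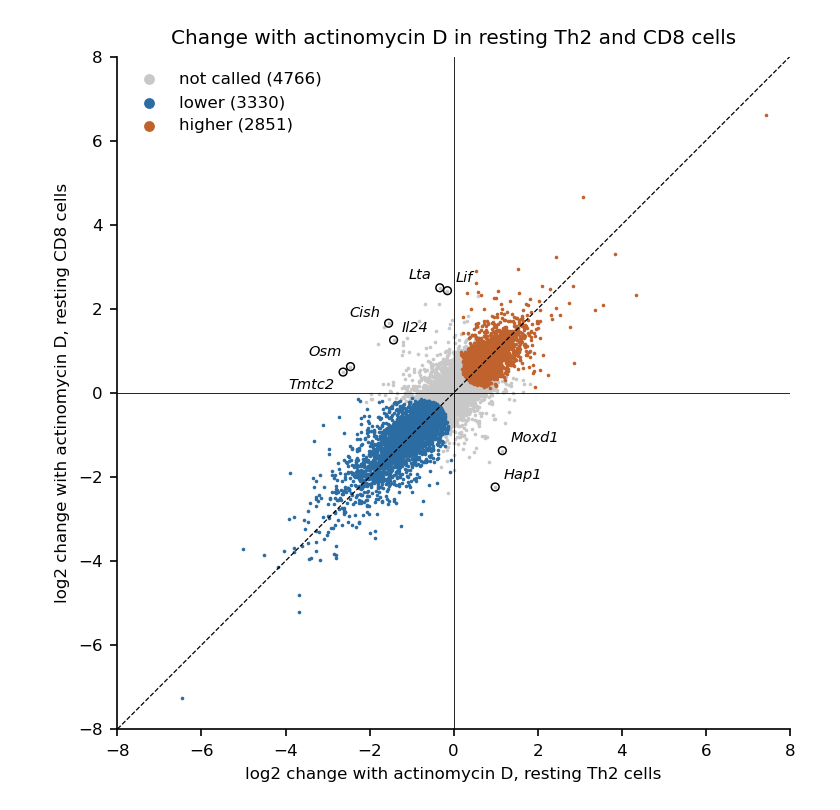
Log2 change with actinomycin D in resting CD8 cells (y axis) against that in resting Th2 cells (x axis), 1 point for each of 10947 genes, coloured by the limma call of the paired test (3330 lower, 2851 higher). The named genes are the 8 with the largest difference between the cell types (mean of 250 or more), and most other points lie along the diagonal (Pearson r of 0.872).

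The printed sequences are sites of the 2 motifs above in messengers that fell, since short-lived messengers are known for such sites. Each is a 30-base window on the sense strand of the 3′ UTR, in DNA letters, within 1 exon of the GENCODE M21 annotation of mm10. In the first set the capitals mark the AU-rich nonamer UUAUUUAUU, which holds the pentamer AUUUA. In the second set they mark UGUANAUA, where N is any base.
Tagap, chr17:7934788-7934817, plus strand: tcagtagagtTTATTTATTagtcacaataa
Nfkbia, chr12:55489607-55489636, minus strand: ggaccacgttTTATTTATTgtgcttttgat
Plk2, chr13:110400734-110400763, plus strand: aataaactttTTATTTATTacagccccaag
Ccne2, chr4:11204116-11204145, plus strand: tcctagaaatTTATTTATTtaaacttgctg
Il10ra, chr9:45254122-45254151, minus strand: ctgggaacctTTATTTATTtatttgctcac
Zfp36l2, chr17:84184913-84184942, minus strand: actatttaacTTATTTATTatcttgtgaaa
Gimap9, chr6:48678357-48678386, plus strand: attTTATTTATTtatttttattaacgacat
Klf2, chr8:72321228-72321257, plus strand: tttataatatTGTATATAagactatgaccg
Zfp85, chr13:67747810-67747839, minus strand: tagtaactttTGTAAATAaaaagaagctgt
Phf13, chr4:151991391-151991420, minus strand: cagatagaacTGTACATAgctagtgagcag
The 7 messengers of the first set had log2 changes between -3.70 (Tagap) and -1.27 (Gimap9), and the 3 of the second set between -4.37 (Klf2) and -3.28 (Phf13). Counted with overlaps, Il10ra held 3 nonamers, Gimap9 held 2, and the other 5 held 1 each. In the windows of Il10ra and Gimap9 another copy starts within the capitals, which mark only 1 copy. The nonamers of Tagap, Nfkbia and Zfp36l2 lay under a GCLiPP peak, a stretch of RNA that proteins shielded from RNase after crosslinking in the pooled Th2 and CD8 libraries. None of the 3 UGUANAUA sites did. Among all 1221 nonamers of the tested genes 76 (6.22%) lay under a peak, and the printed genes were chosen as fallers.

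Among the 15 largest falls, a group without predicted gene models and with a mean of at least 250, several were of signalling inhibitors. Dusp2, a nuclear phosphatase that switches off MAP kinases (chr2:127336159-127338376), was at 84.6 and 65.9 normalised reads in treated Th2 and CD8 cells, against 1101 and 2478 in untreated ones. The groups did not overlap. Dusp2 fell by 4.45 ± 0.32 on the log2 scale (limma adjusted p = 9.93e-05), which is 21.8-fold, with changes of -3.69 in Th2 and -5.21 in CD8 cells. Each ± in this report is the SE of the limma fit, which borrows spread from other genes. It is not the spread of a gene's own pairs. Nfkbia, the inhibitor that holds NF-κB in the cytoplasm (chr12:55489411-55492647), was at 151 and 53.2 in treated cells, against 1082 and 775 in untreated ones. It fell by 3.34 ± 0.25 (limma adjusted p = 0.000105), with changes of -2.83 in Th2 and -3.84 in CD8 cells, without overlap. Dusp5, which inactivates the kinase ERK, fell by 3.29 ± 0.17, and Slfn2, which keeps T cells quiescent, by 3.33 ± 0.23. Cited2, a brake on hypoxia-driven transcription, fell by 3.37 ± 0.25.

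The other large falls were of several kinds. Zfp87, a zinc finger gene (chr13:67515781-67526177), was at 44.1 and 40.4 in treated Th2 and CD8 cells, against 818 and 727 in untreated ones, a change of -4.16 ± 0.20 (limma adjusted p = 5.66e-05) with both cell types close together. Bhlhe40, a transcription factor that governs cytokine output of helper cells (chr6:108660629-108666925), was the most abundant gene of the group, at 1048 and 1226 in treated cells, against 10088 and 11895 in untreated ones. Its changes in the cell types, -3.27 and -3.28, were nearly the same, and it fell by 3.27 ± 0.12 (limma adjusted p = 3.21e-05). Phf13, a reader of histone methylation, fell by 3.28 ± 0.18. The cell division genes Fam83d (mitotic spindle), Ccnf (cyclin F) and Hyls1 (centrioles) fell, with changes of -3.62, -3.28 and -3.26. Dyrk3, a kinase that dissolves condensates, fell by 3.66, and the lectin Clec2d by 3.52. Dleu2, the long noncoding host of miR-15a and miR-16-1, fell by 3.23. The treated and untreated libraries of the 14 genes reported here did not overlap. Their choice as the largest falls makes that likely, and 59.3% of all genes tested did not overlap either.

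**Figure D2:**
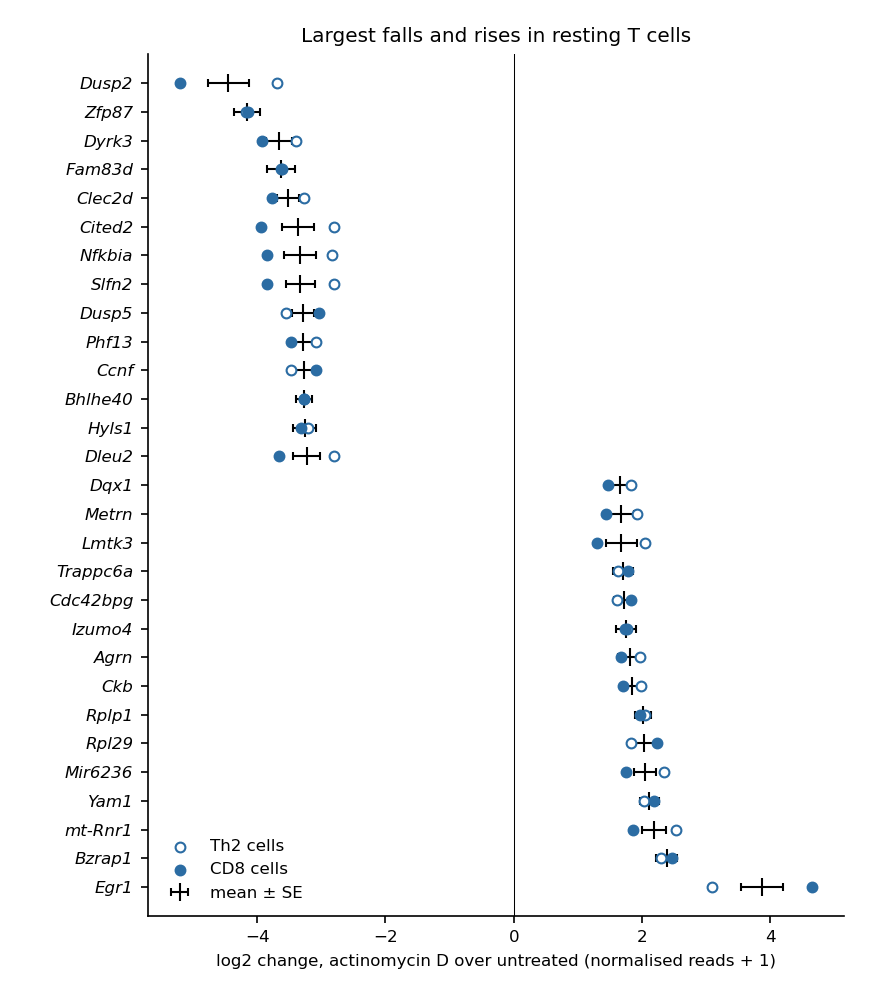
Log2 change with actinomycin D (x axis) of 14 of the 15 genes that fell most and of the 15 that rose most by the naming rule. Open circles are Th2 cells, filled circles CD8 cells, and the bar is the mean ± SE of the paired limma fit; the falls reach -4.45 (Dusp2) and the rises 3.87 (Egr1).

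Rises were smaller. Among the 15 largest, again without predicted gene models and with a mean of at least 250, Egr1 stood apart from the rest. Genes outside that rule are not ranked here, and Fosb, with a mean of 165, rose by 3.33. Egr1, an immediate-early transcription factor gene on chromosome 18, was at 1778 and 1956 normalised reads in treated Th2 and CD8 cells, against 209 and 76.7 in untreated ones. Treated libraries were higher in both pairs, by 3.08 and 4.65 on the log2 scale, for a rise of 3.87 ± 0.32 (limma adjusted p = 0.000133). Bzrap1, known from neurons as a RIM-binding protein (chr11:87760541-87785928), followed at 799 and 912 in treated cells, against 161 and 165 in untreated ones, a rise of 2.38 ± 0.16 (limma adjusted p = 9.03e-05) without overlap. mt-Rnr1, the small ribosomal RNA of mitochondria, rose by 2.19 ± 0.19. The other coding genes were of many kinds: Ckb, a creatine kinase, rose by 1.84, the matrix proteoglycan Agrn by 1.82, the Cdc42-binding kinase Cdc42bpg by 1.72, the vesicle tether Trappc6a by 1.71, the kinase Lmtk3 by 1.68 and the secreted factor Metrn by 1.67. Izumo4 and Dqx1 rose by 1.75 and 1.65. Rpl29 and Rplp1, ribosomal protein genes, rose by 2.03 and 2.01, but 35.1% and 60.0% of their 50-base words occur in other genes, so their values are uncertain. Yam1 and Mir6236, which rose by 2.11 and 2.04, are short entries whose reads may include ribosomal RNA, and that was not tested. Scaling to the ribosomal protein genes lowers every gene's mean change by the same amount. All 15 stayed above 0 on that scale, which their choice as the largest rises made certain.

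Of the 35 T cell activation and feedback genes tested, 17 fell (48.6%) and 5 rose (14.3%), with a median of -0.61. Over all genes 30.4% fell and 26.0% rose, with a median of -0.0086. Besides Dusp2 and Dusp5, Tagap, a GTPase-activating protein, fell by 3.70 ± 0.25 (limma adjusted p = 9.02e-05), although 47.6% of its 50-base words occur in another gene. Cd69, an early activation marker that holds T cells in tissue, was at 149.9 and 240.2 in treated Th2 and CD8 cells, against 505 and 711 in untreated ones, a change of -1.65 ± 0.17 without overlap. The 5 risers, Egr1, Fosb, Nr4a2, Ier2 and Nr4a1, were immediate-early genes. Besides Egr1, Fosb, an AP-1 subunit, was at 474 and 139 in treated cells, against 22.6 and 27.0 in untreated ones. It rose by 3.33 ± 0.44 (limma adjusted p = 0.000728). Nr4a2, a nuclear receptor, rose by 1.03 ± 0.38, with 1.93 in Th2 and only 0.13 in CD8 cells.

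In the NF-κB list 7 of 22 members fell, or 31.8% against 30.4% of all genes, and 2 rose (median -0.14, or 0.011 after quantile normalisation and -0.92 scaled to ribosomal protein genes). Tnfaip3, the ubiquitin editor A20 that ends NF-κB signalling, was at 624 and 202 in treated Th2 and CD8 cells, against 2271 and 2216 in untreated ones, and fell by 2.66 ± 0.32 (limma adjusted p = 0.000464). Nfkbid, a nuclear inhibitor, fell by 1.69 ± 0.25. Its relative Nfkbiz rose by 1.48 ± 0.33, with 0.64 in Th2 and 2.32 in CD8 cells. Nfkb1, which encodes the p105 subunit, did not pass the test, at -0.26 ± 0.16.

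Most lineage transcription factors fell. In the list of lineage factors, which set T cell identity, 36 of 47 members fell (76.6%) and 2 rose (4.26%), with a median of -1.21. Over all genes 30.4% fell and 26.0% rose. Tbx21, the factor T-bet of interferon-producing cells, was at 73.6 and 436 in treated Th2 and CD8 cells, against 417 and 3351 in untreated ones. It fell by 2.71 ± 0.17 (limma adjusted p = 8.03e-05), and Fli1, an ETS factor, by 2.82 ± 0.18. Gata3, the defining factor of Th2 cells, was at 2713 and 22.6 in treated cells, against 3584 and 104 in untreated ones, a change of -1.27 ± 0.35 (limma adjusted p = 0.0166) made up of -0.40 in Th2 and -2.15 in CD8 cells. Batf3, an AP-1 factor, and Zbtb32 were the risers, by 0.87 and 0.83.

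In the list of KLF factors and antiproliferative genes 10 of 13 fell (76.9%, against 30.4% of all genes) and none rose (median -1.17). Klf2, which maintains quiescence and lymph node homing, was at 9.20 and 3.94 in treated Th2 and CD8 cells, against 329 and 64.3 in untreated ones. It fell by 4.37 ± 0.43 (limma adjusted p = 0.000243), although its mean was under the 250 that the largest falls above had to reach. Klf10 fell by 2.83 ± 0.16, and Btg2, a cofactor of deadenylation, by 1.65 ± 0.36, with -0.72 in Th2 and -2.57 in CD8 cells. In the network of MYC and its MXD antagonists 8 of 11 fell (72.7%) and none rose (median -0.67). Myc, the growth regulator, was at 666 and 1262 in treated cells, against 4069.5 and 3854 in untreated ones, and fell by 2.11 ± 0.22 without overlap. The zinc finger genes with a Zfp name were the largest list. Of these, 182 of 271 fell (67.2%) and 14 rose (5.17%, against 26.0% of all genes), with a median of -0.88. Zfp213 fell by 3.90 ± 0.31 and Zfp85 by 3.58 ± 0.32, with 24.2% of the words of Zfp85 shared with other genes. Zfp692 rose by 1.39 ± 0.14.

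**Figure D3:**
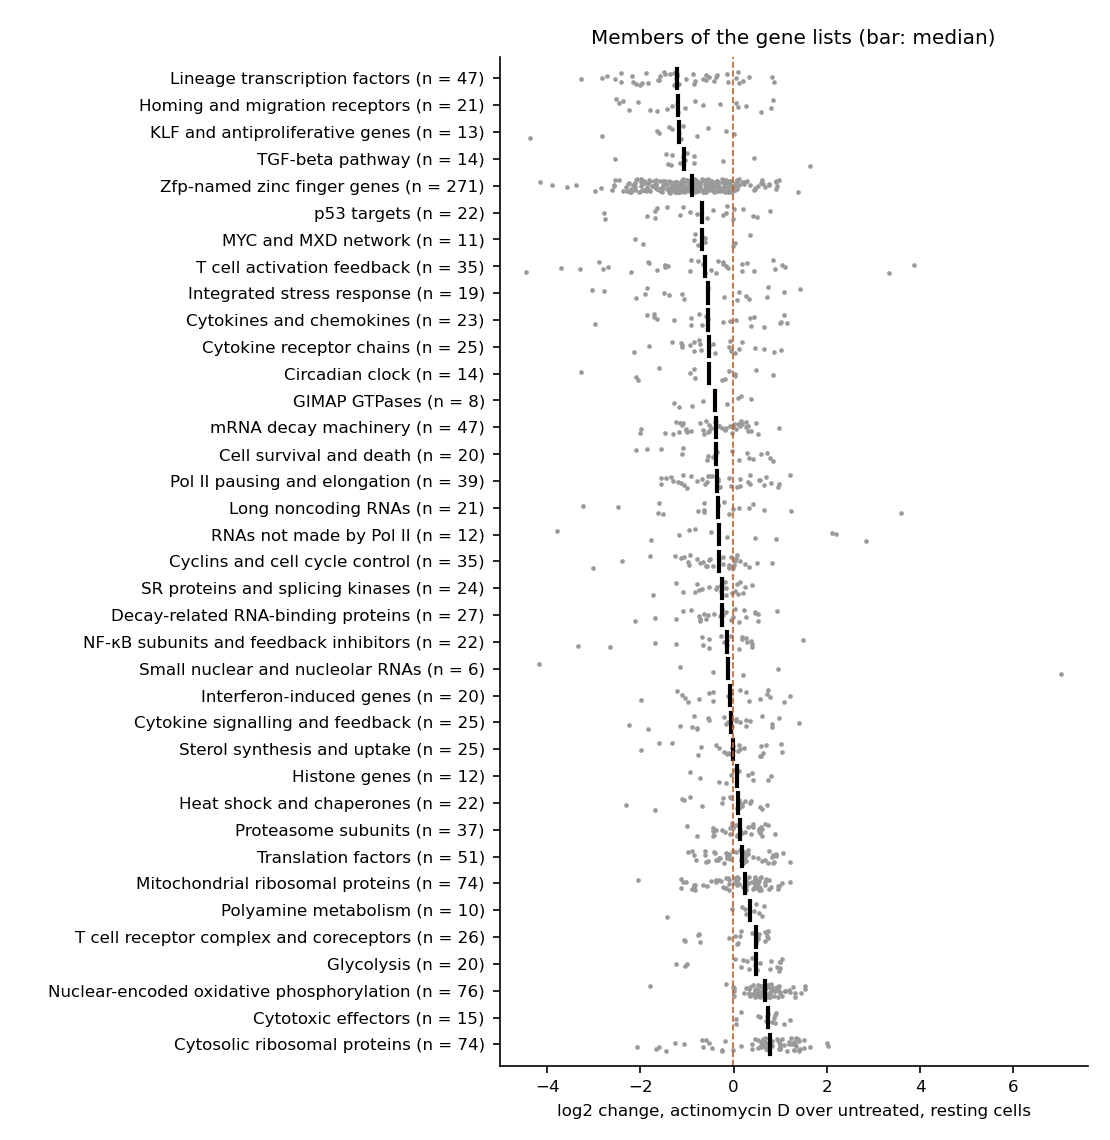
Log2 change with actinomycin D in resting cells (x axis) for the members of each gene list that were tested (grey points), ordered by the list median (black bar); n is the number tested, and the dashed line is the median of all 10947 genes. Lists of transcription factors and homing receptors lie to the left (medians of -1.21 and -1.19), and ribosomal protein, cytotoxic and oxidative phosphorylation genes to the right (0.78, 0.73 and 0.68).

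Many receptors for migration and cytokines fell. In the homing list 13 of 21 fell (61.9%, against 30.4% of all genes) and 3 rose (14.3%, against 26.0%), with a median of -1.19. The chemokine receptors Cxcr6, Cxcr4 and Ccr7 fell, with log2 changes of -2.52 ± 0.13, -2.45 ± 0.20 and -2.38 ± 0.17. Cxcr4, which retains cells in bone marrow, was at 1024 and 203 in treated Th2 and CD8 cells, against 4144 and 1508 in untreated ones. In the cytokine receptor list 14 of 25 fell (56%) and 4 rose (16%), with a median of -0.54. Il7r, the receptor chain for the survival factor IL-7, was at 2801 and 3691 in treated cells, against 12423 and 10347 in untreated ones, and fell by 1.82 ± 0.17, and Il10ra fell by 2.13 ± 0.20. Il2ra, the high-affinity chain for IL-2, did not pass, at 0.18 ± 0.19, whereas Il27ra rose by 1.01 ± 0.12.

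In the list of the T cell receptor complex and coreceptors 15 of 26 rose (57.7%, against 26.0% of all genes) and 5 fell (19.2%, against 30.4%). Their median of 0.47 became -0.31 when scaled to ribosomal protein genes. Cd3e, a signalling chain of the receptor, was at 7028 and 7500.3 in treated Th2 and CD8 cells, against 4973 and 5259 in untreated ones, a rise of 0.51 ± 0.12 whose sign turned on that scale as well. The costimulatory receptor Cd28 fell by 1.05 ± 0.18. The cytotoxic effector list held 12 risers of 15 (80%) and no faller, with a median of 0.73 that became -0.043 on the ribosomal protein scale. Gzmb, the killing protease granzyme B, was at 149171 and 413474 in treated Th2 and CD8 cells, against 92569 and 255366 in untreated ones. Its rise of 0.69 ± 0.19 had the same size in both cell types and turned sign on the ribosomal protein scale, and Ctsw, a cathepsin of cytotoxic cells, rose by 1.08 ± 0.14.

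Cytokine messengers were mixed. Of 23 tested, 7 fell and 3 rose (median -0.54), and the share that fell equalled the 30.4% of all genes. Il16 was at 648 and 440.0 in treated Th2 and CD8 cells, against 5169 and 3384 in untreated ones, a change of -2.97 ± 0.13 (limma adjusted p = 5e-05), and Cd40lg, the helper ligand for B cells, and Il10, a suppressive cytokine, fell by 1.86 ± 0.31 and 1.70 ± 0.17. Ifng, interferon gamma, was at 46.9 and 3445 in treated cells, against 39.7 and 993 in untreated ones. It rose by 1.01 ± 0.33 (limma adjusted p = 0.0315), with 0.23 in Th2 and 1.79 in CD8 cells, and was at -0.034 without the untreated CD8 library. In the list of cytokine signalling and feedback genes 8 of 25 fell and 6 rose (median -0.059), shares of 32.0% and 24.0% that were also near those of all genes. Pim3, a survival kinase downstream of cytokines, fell by 2.24 ± 0.23, while Jak3, the kinase of the common gamma chain, rose by 1.41 ± 0.12. Bcl6 fell by 1.83 ± 0.43, with -0.78 in Th2 and -2.89 in CD8 cells.

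Death and stress genes moved in both directions. In the survival list 10 of 20 fell (50%, against 30.4% of all genes) and 4 rose (20%, against 26.0%), with a median of -0.37. The cell death activators Bmf and Bbc3 fell by 2.08 ± 0.21 and 1.86 ± 0.26, the death ligand Fasl by 1.55 ± 0.25, whereas Bax, another activator, rose by 0.79. The prosurvival genes Bcl2 and Bcl2l2 rose by 0.58 ± 0.16 and 0.72 ± 0.13, signs that turned on the ribosomal protein scale, and Mcl1, named after its values were seen, fell by 1.10 ± 0.15. Of 22 p53 targets 13 fell (59.1%) and 2 rose (9.09%), with a median of -0.68. Plk2 was at 124 and 91.5 in treated Th2 and CD8 cells, against 766 and 682 in untreated ones, and fell by 2.75 ± 0.18. Cdkn1a, the cell cycle inhibitor p21, fell by 1.68 ± 0.14. Of 19 integrated stress response genes 10 fell (52.6%) and 4 rose (21.1%), with a median of -0.54. Ddit4, an inhibitor of mTORC1, was at 832 and 978 in treated cells, against 6098 and 9030.1 in untreated ones, a change of -3.04 ± 0.13 (limma adjusted p = 5e-05). Sesn2, another brake on mTORC1, fell by 2.78 ± 0.25, and Xbp1, a factor of the unfolded protein response, by 2.10 ± 0.20. Ppp1r15a, the phosphatase subunit that ends the response, rose by 1.43 ± 0.17, and Atf4, its central factor, did not pass, at 0.11 ± 0.13. Among chaperones 6 of 22 fell (27.3%) and 5 rose (22.7%), shares near the 30.4% and 26.0% of all genes. Their median of 0.10 turned to -0.10 after quantile normalisation and -0.68 on the ribosomal protein scale. Dnajb1, a heat-inducible cochaperone, fell by 2.32 ± 0.14.

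Of 14 genes of the TGF-beta pathway 11 fell (78.6%, against 30.4% of all genes) and 2 rose (14.3%, against 26.0%), with a median of -1.07. Its signal-transducing factors Smad3, Smad2 and Smad4 fell, with changes of -2.55 ± 0.17, -1.44 ± 0.13 and -1.42 ± 0.14. Smad3 was at 560.1 and 152 in treated Th2 and CD8 cells, against 3926 and 747 in untreated ones. Ltbp3, which stores the latent ligand, rose by 1.64 ± 0.21. Of 35 cyclins and cell cycle regulators 17 fell (48.6%) and 2 rose (5.71%), with a median of -0.31. The falls were led by the mitotic kinase Aurka (-3.01 ± 0.20) and Ccne2, cyclin E2 (-2.40 ± 0.15), while Cdk4 rose by 0.82 ± 0.12. Of 14 clock genes 7 fell (50%) and 1 rose (7.14%), with a median of -0.53. Arntl, the clock activator BMAL1, fell by 2.05 ± 0.25, and Per3 rose by 0.84 ± 0.19. Of 8 GIMAP genes, GTPases of lymphocyte survival, 4 fell (50%) and 1 rose (12.5%), with a median of -0.40.

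Messengers of some proteins that act on RNA were themselves among the fallers, and over all genes 30.4% fell and 26.0% rose. In the list of decay-related RNA-binding proteins 12 of 27 fell (44.4%) and 5 rose (18.5%), with a median of -0.24. Zfp36l2, which binds AU-rich elements, was at 2515 and 905 in treated Th2 and CD8 cells, against 7467 and 5708 in untreated ones. It fell by 2.11 ± 0.23 (limma adjusted p = 0.000328). Zfp36 itself went the other way, at 1737 and 1066 in treated cells, against 708 and 722 in untreated ones, a rise of 0.93 ± 0.19 (limma adjusted p = 0.00423). In the decay machinery 24 of 47 fell (51.1%) and 4 rose (8.51%), with a median of -0.38. Cnot1, the scaffold of the deadenylase, fell by 0.64 ± 0.13, and Smg8, of nonsense-mediated decay, by 2.00 ± 0.16. Of 39 factors of polymerase II pausing and elongation 20 fell (51.3%) and 10 rose (25.6%, near the share of all genes), with a median of -0.35. The chromatin reader Brd2 and Mepce, which caps the 7SK RNA, fell by 1.56 ± 0.12 and 1.45 ± 0.14, and Polr2a, the largest polymerase subunit, by 0.53 ± 0.13, whereas the small subunits Polr2f and Polr2e rose by 1.20 ± 0.15 and 0.98 ± 0.14. Of 24 SR proteins and splicing kinases 9 fell (37.5%) and 1 rose (4.17%), with a median of -0.26. Clk1, a kinase of SR proteins, fell by 1.74 ± 0.19.

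Housekeeping messengers rose most often in the lists of cytosolic ribosomal proteins and oxidative phosphorylation. Of 74 cytosolic ribosomal protein genes 56 rose (75.7%, against 26.0% of all genes) and 9 fell (12.2%, against 30.4%), with a median of 0.78. Of 76 nuclear genes of oxidative phosphorylation 64 rose (84.2%) and 1 fell (1.32%). Their median was 0.68, or -0.093 on the ribosomal protein scale. Atp5d, a subunit of ATP synthase, was at 4925 and 5283 in treated Th2 and CD8 cells, against 1716 and 1809 in untreated ones, a rise of 1.53 ± 0.12 (limma adjusted p = 0.000122). Uqcr11, of complex III, rose by 1.52 ± 0.16, and Cox7c, of complex IV, was the faller, by 1.80 ± 0.28, with 22.1% of its words shared. Eef2, the elongation factor of translation, rose by 1.20 ± 0.18. Of 51 translation factors 14 rose (27.5%, against 26.0% of all genes) and 10 fell (19.6%, against 30.4%). Their median was 0.17, or -0.60 on the ribosomal protein scale. Of 74 mitochondrial ribosomal proteins 26 rose (35.1%) and 13 fell (17.6%), with a median of 0.25, or -0.53 on that scale. Of 37 proteasome subunits 15 rose (40.5%) and 7 fell (18.9%), with a median of 0.14, or -0.64. Of 20 glycolytic genes 11 rose (55%) and 3 fell (15%), with a median of 0.48, or -0.30. Of the 3 fallers in glycolysis, Slc2a1, the glucose transporter, fell by 1.25 ± 0.17 and Hk2, hexokinase, by 1.05 ± 0.17, whereas Eno3 and Pfkm rose by 1.03 and 1.00. The enzyme Gapdh fell by 1.00 with 24.7% of its words shared. In sterol synthesis 7 of 25 rose (28%) and 6 fell (24%), near the 26.0% and 30.4% of all genes. Their median was -0.021, or 0.072 after quantile normalisation. Sqle, the squalene epoxidase, fell by 1.60 ± 0.15, and Mvd and Mvk rose by 1.04 ± 0.17 and 1.02 ± 0.22. Of 20 interferon-induced genes 7 rose and 7 fell, or 35% each, against 26.0% and 30.4% of all genes. Their median was -0.086, or 0.026 after quantile normalisation. Irgm1 fell by 1.99 ± 0.13 whereas Ifi27l2a rose by 1.21 ± 0.13.

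RNAs made by other polymerases, or kept in the nucleus, gave no common direction. Of 12 RNAs not made by polymerase II 6 fell (50%, against 30.4% of all genes) and 4 rose (33.3%, against 26.0%). Rn7sk, the 7SK RNA, was at 309 and 525 in treated Th2 and CD8 cells, against 56.1 and 54.9 in untreated ones, a rise of 2.84 ± 0.25 (limma adjusted p = 0.000175), but 68.1% of its words occur in other genes. Unlike mt-Rnr1, the mitochondrial messengers mt-Nd2 and mt-Nd1, which encode subunits of complex I, fell by 1.77 ± 0.16 and 1.16 ± 0.18. The small nucleolar RNA Snord118, also called U8, was at 173 and 96.5 in treated Th2 and CD8 cells, against 0 in both untreated libraries, which is at least 74.0-fold and 31.0-fold higher than a floor of 3 reads per library. Malat1, a nuclear long noncoding RNA, did not pass, at 0.44 in Th2 and -0.86 in CD8 cells (mean -0.21 ± 0.27), and Mir17hg, the host of the miR-17 cluster, fell by 2.47 ± 0.16.

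The cell types parted in few genes. 365 genes (3.33%) differed by more than 1 on the log2 scale between Th2 and CD8 cells, and 9 moved at least 2-fold in opposite directions. With 1 pair in each cell type these differences have no test, and genes low in 1 cell type are among them. Cish, a STAT5-induced inhibitor of cytokine receptors, was at 5113 in treated and 14941 in untreated Th2 cells, and at 2231 in treated and 707 in untreated CD8 cells, changes of -1.55 and 1.66. Lif, a cytokine of the IL-6 family, was at 15861 in treated and 17561 in untreated Th2 cells, against 2141 in treated and 396 in untreated CD8 cells, changes of -0.15 and 2.43. Lta, lymphotoxin alpha, changed by -0.33 in Th2 and 2.50 in CD8 cells. All 3 were thus higher in treated than in untreated CD8 cells and lower in treated than in untreated Th2 cells. Osm, another cytokine of the IL-6 family, changed by -2.45 in Th2 and 0.62 in CD8 cells, and Il24 by -1.43 and 1.26. Tmtc2 changed by -2.63 and 0.49, and Hap1 and Moxd1, both under 50 normalised reads in CD8 cells, by 0.99 and 1.16 in Th2 cells.

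The same drug contrast in cells stimulated with PMA and ionomycin, which imitate receptor signals, used 4 other libraries, so the difference of the changes could be tested. In a limma model of all 8 libraries, 791 genes had a change at rest above that in stimulated cells (7.23%) and 777 below it (7.10%). Against the 1568 in all, 24 passed without the treated stimulated Th2 library, 565 without the treated stimulated CD8 library, 83 without the treated resting Th2 library, 125 without the treated resting CD8 library, 223 without the untreated resting Th2 library and 312 without the untreated resting CD8 library, and 3274 passed without the untreated stimulated CD8 library. Sema7a, a membrane semaphorin, was at 214 and 189 in treated and 483 and 357 in untreated resting Th2 and CD8 cells, and at 279.8 and 267 in treated and 13554 and 11859 in untreated stimulated ones. The change at rest thus exceeded that in stimulated cells by 4.49 ± 0.22 (limma adjusted p = 0.000961). Tet1, an oxidase of methylated DNA, was at 432 and 436 in treated and 502 and 463 in untreated resting cells, against 573 and 443 in treated and 13.6 and 17.8 in untreated stimulated ones, a difference of -5.08 ± 0.32 (limma adjusted p = 0.00164). In both genes the treated libraries had like levels with and without stimulation, and the untreated stimulated libraries stood apart. Txnip, which restrains glucose uptake, and S1pr1, the receptor that guides cells out of lymph nodes, were lower in treated resting cells (changes of -1.34 and -1.75 for Txnip and -2.39 and -2.10 for S1pr1 in Th2 and CD8) and higher in treated stimulated cells (2.23 and 2.11, and 1.51 and 1.43), with differences of -3.71 ± 0.20 and -3.71 ± 0.21 (limma adjusted p of 0.000961 and 0.00124).

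Egr1, Itga3 and Spp1 went the opposite way. Egr1 was at 4273 and 3339 in treated and 8474 and 4929 in untreated stimulated Th2 and CD8 cells, changes of -0.99 and -0.56, and the difference to rest was 4.64 ± 0.46 (limma adjusted p = 0.00499). Untreated stimulated cells thus held the most Egr1 and untreated resting cells the least, with both treated pairs between them. Itga3, an integrin chain, and Spp1, osteopontin, rose at rest by 0.64 and 0.58, signs that turned on the ribosomal protein scale, and differed from the stimulated change by 3.52 ± 0.40 and 3.90 ± 0.79 (limma adjusted p of 0.00724 and 0.0236). Hivep3, a zinc finger factor, did not pass the test at rest (0.063 and -0.25 in Th2 and CD8) and was lower in treated stimulated cells (-3.30 and -4.04), a difference of 3.58 ± 0.27. By list, 18 of 35 activation and feedback genes, 15 of 22 NF-κB genes and 10 of 23 cytokines passed with the change at rest above that in stimulated cells. Over all genes 7.23% did. The median differences of the lists were 1.55, 1.76 and 1.74, against -0.0057 over all genes. The lists were chosen with earlier results of these data known, so the counts are a description and not independent support. Without the treated stimulated Th2 library 0, 1 and 0 members of the lists passed, and without the treated resting Th2 library 3, 5 and 1.

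**Figure D4:**
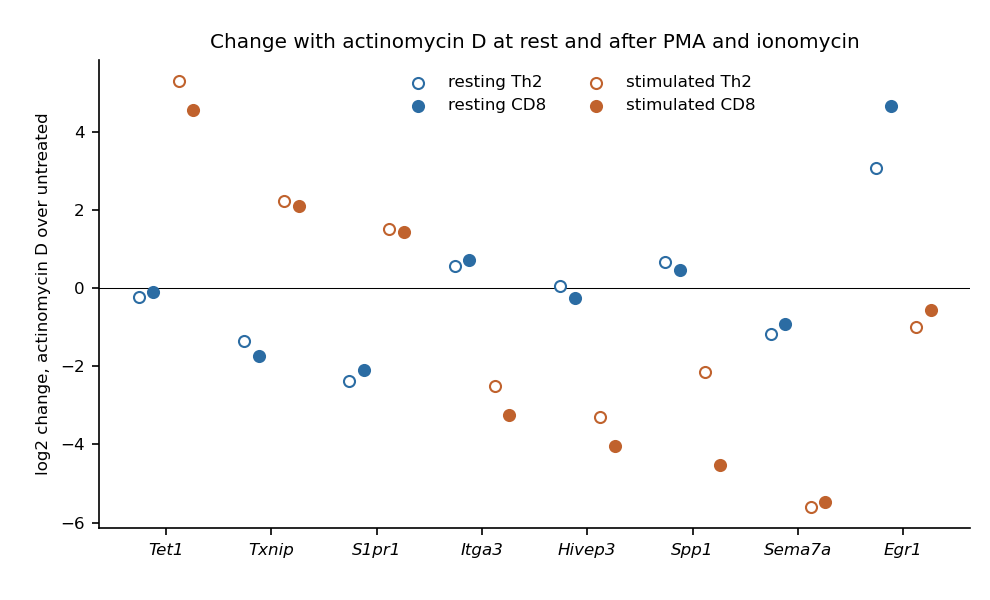
Log2 change with actinomycin D (y axis) of the 8 genes with the largest difference between rest and stimulation, in resting Th2 and CD8 cells (left pair of symbols for each gene) and in stimulated Th2 and CD8 cells (right pair), 1 library pair per symbol. S1pr1 and Txnip are below 0 at rest and above 0 in stimulated cells, and Egr1 is above 0 at rest (3.08 and 4.65) and below 0 in stimulated cells.

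The changes were then set beside the sequence of each messenger, as a description over genes and with no test, since motif, length and base composition go together. Of the 10947 genes, 10402 were coding with an annotated 3′ UTR (median change -0.016, 30.8% lower and 26.2% higher), and the longest 3′ UTR was read on the sense strand only. AUUUA was found in the UTR of 70.9% of them, UUAUUUAUU in 8.37% and UGUANAUA in 26.7%, against 65.3%, 7.67% and 23.3% of all 20689 such genes in the table. The 3026 genes without AUUUA had a median of 0.35, with 43.5% higher and 17.8% lower. The median was 0.013 with 1 to 2 copies, -0.22 with 3 to 5 and -0.33 with 6 or more, where 8.56% were higher and 44.6% lower. Both cell types gave this order, from 0.29 without AUUUA to -0.28 with 6 or more copies in Th2 cells and from 0.38 to -0.37 in CD8 cells.

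Longer UTRs hold more copies, so the count was also read within 3 equal classes of UTR length. In the shortest class the median was 0.41 without AUUUA (2134 genes) and -0.18 with 3 to 5 copies (179 genes), and in the longest class it was 0.073 without (152 genes) and -0.34 with 6 or more copies (1627 genes). Within 3 equal classes of coding GC content the order was the same: medians without AUUUA and with 6 or more copies were -0.083 and -0.34 in the low class and 0.53 and -0.40 in the high class. The full nonamer was scarcer. Its 673 genes with 1 copy had a median of -0.26 and its 198 with more had -0.27, against 0.013 in the 9531 without. Of 1221 nonamers in the tested genes, 76 (6.22%) lay under a GCLiPP peak, and the 66 genes that held those had a median of -0.37, against -0.24 in the other 805 genes with a nonamer.

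UGUANAUA followed the same order. The median was 0.097 in 7628 genes without it, -0.28 with 1 copy, -0.39 with 2 and -0.49 with 3 or more, where 54.3% of 293 genes were lower and 4.78% higher. In the shortest class of UTRs the median was 0.35 without it, -0.19 with 1 and -0.46 with 2 or more (50 genes), and in the longest class -0.16, -0.31 and -0.45. It also held at a given AUUUA count. Among genes without AUUUA the median was -0.014 in the 270 with UGUANAUA and 0.38 in the 2756 without it, and among those with 6 or more AUUUA it was -0.38 with and -0.21 without. Among fallers UGUANAUA was not most frequent in the largest falls: it was in 27.9% of the 229 coding genes that fell by at least 4-fold, 38.0% of the 1214 that fell 2-fold to 4-fold, 40.6% of the 1766 that fell by less, and 8.54% of the 597 that rose by at least 2-fold.

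**Figure D5:**
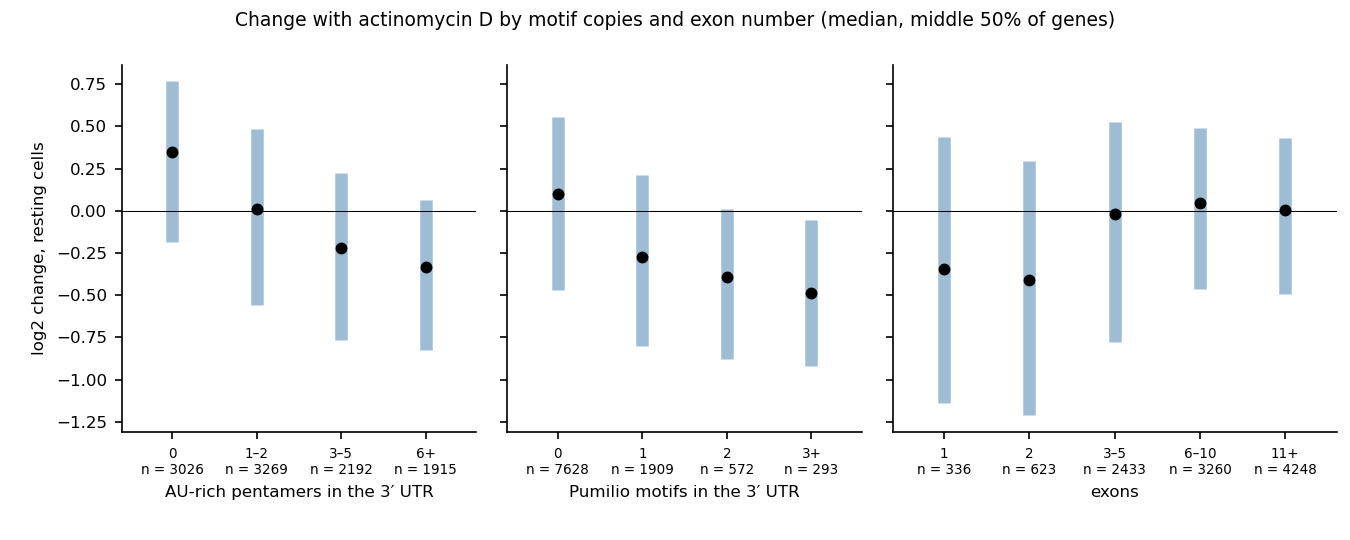
Log2 change with actinomycin D in resting cells (y axis) by copies of the AU-rich pentamer AUUUA and of the Pumilio motif UGUANAUA in the 3′ UTR and by number of exons (x axes), as the median (dot) and middle 50% of genes (bar), with the number of genes under each bin. The medians fall with motif copies (0.35 to -0.33 for AUUUA) and are lowest for genes of 1 or 2 exons (-0.34 and -0.41).

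The number of exons also differed between the strongest falls and other genes. Genes of 1 exon (336) and of 2 exons (623) had medians of -0.34 and -0.41, and 29.5% and 31.5% of them fell by at least 2-fold, against 20.1% with 3 to 5 exons, 10.5% with 6 to 10 and 9.16% with 11 or more. Genes of 1 or 2 exons were 17.0% of those that fell by at least 4-fold and 4.69% of those that rose by at least 2-fold. GC content ran the other way. Over 5 equal classes of transcript GC, from low to high, the medians were -0.31, -0.20, -0.029, 0.19 and 0.45, and over 5 classes of transcript length, from short to long, 0.41, 0.12, -0.058, -0.18 and -0.29. Across genes the change correlated with GC at a Spearman rho of 0.337, with length at -0.300 and with the AUUUA count at -0.330, over points that share the same 4 libraries. Genes with many and with no GCLiPP peaks were close together, with medians of -0.13 in 682 genes with 10 or more peaks and -0.00033 in 3954 genes without one.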

How the data were processed

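RNA was measured by RNA-seq after oligo-dT selection and a stranded total RNA library kit. The labels give all libraries preparation from lysate of cells irradiated at 254 nm, whereas for cells given actinomycin D the study's methods describe lysis in Trizol LS without naming these libraries. Per the submitters' processing notes reads were aligned with STAR to mm10. The deposited signal is the authors' read count per gene divided by 1 size factor per library: whole reads were recovered for 100% of values within 0.01 read, whereas length-scaled values are described in the study's methods. No source used here gives the counting tool or its use of strand, so overlapping and antisense genes are uncertain. The authors' GCLiPP peak list, pooled over Th2 and CD8 libraries, holds 27729 peaks with a deposited score of unstated meaning, and only peak positions were used. Columns of other RNA-seq conditions were used only for the comparison with stimulated cells.

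Groups came from the labels. limma 3.58.1 (R 4.3.3) was fitted with a mean-variance trend to log2(value + 1) with cell type as a block, for genes with a mean of at least 50, and p-values were adjusted by Benjamini-Hochberg over all 10947 genes. The fit had 1 residual degree of freedom and borrowed a prior of 6.72, and with 1 library per condition the p-values cover no more than the spread among these 4 libraries, which may be technical. Fold changes on this scale understate those of low genes. The difference between rest and stimulation was an interaction in a model of 8 libraries. The fit was also run on simulated counts with few changed genes and with the spread estimated from these 4 libraries. That run cannot check the scaling or the lack of replicates. The gene lists and members were chosen with earlier results of these data known. Genes named are the 15 largest changes in each direction (past the threshold, same direction in both pairs, mean of at least 250, no predicted models), up to 3 genes per direction and the defining member of each list, the 8 largest differences between cell types and between rest and stimulation, and genes whose AU-rich site is printed. The 3 genes with a printed UGUANAUA site were chosen after their values were seen. Some named genes and sites are not reported here. Sequences and gene models came from GENCODE M21 (GRCm38, the mm10 build), to which 42462 of 43432 genes matched by Ensembl identifier. Genes with at least 20% of their 50-base words in other annotated genes are called uncertain (538 of those tested). Alternatives were other pseudocounts (0.5, 10), filters (none, 250), scalings (ribosomal protein genes, quantile, TMM), no block, no trend, edgeR 4.0.16 and DESeq2 1.42.0 on the recovered reads, leaving out each library, and, chosen after seeing the data, leaving out genes with shared sequence and counting 2-fold changes in both pairs under other scalings.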

Additional observations from a re-analysis of the deposited data

Results flagged for a closer look

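The change with actinomycin D at rest differed from that in stimulated cells, by the limma interaction, for 47 of the genes named in the report. These are differences on the log2 scale, rest minus stimulated, and in each gene the comparison is of 2 pairs with 2 pairs. The change at rest was above that in stimulated cells for Atp5d (1.39), Batf3 (1.06), Cd69 (1.15), Ckb (1.67), Dusp2 (2.89), Dusp5 (2.31), Eef2 (0.98), Egr1 (4.64), Hivep3 (3.58), Ifi27l2a (0.90), Ifng (3.50), Il27ra (1.04), Itga3 (3.52), Jak3 (0.91), Mir17hg (2.18), Myc (1.66), Nfkb1 (1.61), Nfkbia (2.30), Nfkbid (2.55), Polr2e (1.26), Polr2f (1.39), Rpl29 (2.16), Rplp1 (2.16), Sema7a (4.49), Slfn2 (1.77), Spp1 (3.90), Tagap (3.29), Tnfaip3 (2.41), Trappc6a (1.51), Uqcr11 (1.73) and Zbtb32 (2.19). It was below that in stimulated cells for Aurka (-2.47), Bcl2 (-1.10), Bmf (-3.09), Ccne2 (-1.50), Ccr7 (-1.54), Ddit4 (-2.68), Fam83d (-1.88), Fli1 (-1.45), Hyls1 (-1.38), Il10ra (-1.85), Il7r (-0.90), Klf10 (-1.04), S1pr1 (-3.71), Tet1 (-5.08), Txnip (-3.71) and Zfp36l2 (-1.62). Of these 47, 41 without the treated stimulated Th2 library, 38 without the treated resting Th2 library and 34 without the treated resting CD8 library no longer passed.

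The Th2 and CD8 pairs went opposite ways at rest in 11 named genes, a difference that was not tested because each cell type has 1 pair. The Th2 change minus the CD8 change on the log2 scale was as follows: Cish (-3.20), Hap1 (3.23), Hivep3 (0.32), Il24 (-2.69), Lif (-2.58), Lta (-2.83), Malat1 (1.30), Moxd1 (2.54), Nfkb1 (-0.56), Osm (-3.08) and Tmtc2 (-3.12). The differences of Hivep3 and Nfkb1 are under 1.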

How the results depend on the processing

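Among the alternatives, pseudocounts of 0.5 and 10 called 6161 and 6164 genes, TMM factors 6159, no trend 5604, the 8-library model 5095, edgeR 6213, DESeq2 5413, a mean of at least 250 5224 of 8645 genes, no filter 7483 of 22171, and leaving out genes with shared sequence 5824. Scaling moved the split more: 146 higher and 6902 lower on the ribosomal protein scale, and 3577 higher and 3016 lower after quantile normalisation (medians of -0.79 and 0.093). Without the replicate block, which here is the cell type, 0 genes passed with limma (3359 at an unadjusted p under 0.05). No replicate numbers pair the libraries beyond that. Leaving out 1 library left 2085 to 3229 genes, with the remaining sample of that condition assumed to vary like the others. For the difference from stimulated cells, the ribosomal protein scale called 4676 genes (273 above 0, 4403 below), a pseudocount of 10 called 1580, a mean of at least 250 called 1444 and quantile normalisation 1495, and leaving out 1 library gave 24 to 3274. Genes at least 2-fold higher in both pairs (416) numbered 261 at a mean of at least 250, 641 after quantile normalisation and 21 on the ribosomal protein scale, where 3395, against 1144, were lower. The AUUUA medians within classes of UTR length ran to 0.20 (middle class) and 0.073 (long) without AUUUA, and to -0.41 (short, 15 genes) and -0.24 (middle) with 6 or more.

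On the ribosomal protein scale the sign turned for Atf4 (-0.66), Bcl2 (-0.19), Bcl2l2 (-0.052), Cd3e (-0.27), Cd8a (-0.060), Cish (-0.72), Gzmb (-0.085), Il2ra (-0.60), Itga3 (-0.14) and Spp1 (-0.20), and for the medians of the T cell receptor complex (-0.31), cytotoxic effectors (-0.043), chaperones (-0.68), polyamine metabolism (-0.42), glycolysis (-0.30), histone genes (-0.70), oxidative phosphorylation (-0.093), mitochondrial ribosomal proteins (-0.53), proteasome subunits (-0.64) and translation factors (-0.60). The median of the cytosolic ribosomal proteins, which set that scale, was -0.0011 and is near 0 by construction. Quantile normalisation turned Il2ra (-0.46) and the medians of NF-κB (0.011), chaperones (-0.10), sterol synthesis (0.072, and 0.016 with TMM) and interferon-induced genes (0.026), and edgeR turned Moxd1 (1.11). Leaving out 1 library put Ifng between -0.034 (without untreated CD8) and 2.06 (without untreated Th2) and Cish between -1.55 and 1.66 in the same order, and without the treated CD8 library the NF-κB median was 0.00062. Without genes with shared sequence the small nuclear and nucleolar RNA median was 0.95. Depth, at 24687869 reads or more per library, and the 1 library per condition both limit the precision; which limits more was not tested.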

Other observations

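Some further groups were measured in the resting cells. Of 12 histone genes 2 rose and 2 fell (16.7% each, against 26.0% and 30.4% of all genes). Their median of 0.076 became -0.70 on the ribosomal protein scale. H2afy, which encodes the variant macroH2A, was at 13693 and 31604 in treated Th2 and CD8 cells, against 7284 and 19552 in untreated ones, a rise of 0.80 ± 0.14. H3f3b, which encodes the replacement histone H3.3, was at 4299 and 4063 in treated cells, against 6509.5 and 7241 in untreated ones, a change of -0.72 ± 0.13. Both cell types moved the same way in each gene. Of 10 genes of polyamine metabolism 4 rose (40%) and 1 fell (10%), with a median of 0.36, or -0.42 on the ribosomal protein scale. The faller, Amd1, which supplies the aminopropyl donor, fell by 1.43 ± 0.17, but 78.1% of its 50-base words occur in other genes. Of 21 long noncoding RNAs 9 fell (42.9%) and 3 rose (14.3%), with a median of -0.33. Firre, a nuclear RNA of the X chromosome, rose by 1.23 ± 0.20. Of 6 small nuclear and nucleolar RNAs 2 fell and 1, Snord118, rose, which passed the filter on the mean only through the treated libraries.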
